A study of Mus musculus with 24 samples.

Results

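The 10 genes described here, Siglech, Bst2, Ccr9, Tcf4, Spib, Runx2, Cox6a2, Ly6d, Klk1 and Smim5, are known for their expression in mouse plasmacytoid dendritic cells. They were taken by symbol, as a list of known genes of this cell type, out of 45792 genes in the deposited tables. All 10 were among the 14227 genes tested, those whose log2 values averaged 4 or more. The cells came from livers of female C57BL/6 mice kept for 2 weeks on a diet lacking methionine and choline, which induces steatohepatitis, a fatty and inflamed liver. The mice were then given liposomes, lipid vesicles, by vein. The vesicles carried DiI, a dye that lodges in membranes, and held either nothing else or curcumin, a polyphenol of turmeric. After 24 h, liver cells positive for CD11c and for MHC class II were sorted into those with and those without DiI. This gave 4 groups of 3 libraries, called here empty DiI-positive, empty DiI-negative, curcumin DiI-positive and curcumin DiI-negative after the liposome given and the dye in the cells. Every group had the diet and dye-labelled liposomes, so no group shows untreated or normal liver. The sources used here do not tell if a group's 3 libraries are different mice or pools, so p-values measure only the spread among these libraries, part of which may be technical.

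Plasmacytoid dendritic cells are blood-borne immune cells that sense viral nucleic acids through endosomal Toll-like receptors and answer with large amounts of type I interferon. Their identity depends on the E protein transcription factor Tcf4, also called E2-2, and several genes they use, among them Spib, Tcf4 and Ly6d, are also used in the B cell lineage. In mice they carry less CD11c and MHC class II than conventional dendritic cells, and they are found in normal and diseased liver.

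Promoters are shown for 3 genes that varied together between libraries (Siglech, Ccr9 and Klk1) and for Bst2, an interferon-inducible gene. RefSeq promoter sequences of GRCm38.p6 were matched for 6 of the 10 genes (Klk1, Spib, Siglech, Bst2, Ccr9 and Runx2). Each window runs from 250 bases before to 50 bases after the annotated RefSeq start and is written 5′ to 3′ on the gene's strand. For Ccr9 the window begins at 123766961, inside the gene as annotated by GENCODE, which begins at 123678439. In the first 3, capitals mark the E-box core CAGGTG, or CACCTG on the other strand, a motif that E proteins such as Tcf4 can bind. In Bst2, capitals mark 2 overlapping matches to GAAA, any 2 bases and GAAA again, the spacing of an interferon-stimulated response element.
Siglech, chr7:55767934-55768233, plus strand: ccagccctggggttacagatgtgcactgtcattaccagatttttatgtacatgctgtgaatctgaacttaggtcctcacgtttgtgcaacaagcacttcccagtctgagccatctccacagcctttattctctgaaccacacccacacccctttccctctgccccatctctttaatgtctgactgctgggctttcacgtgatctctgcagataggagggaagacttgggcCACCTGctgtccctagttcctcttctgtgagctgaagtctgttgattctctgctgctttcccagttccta
Ccr9, chr9:123766961-123767260, plus strand: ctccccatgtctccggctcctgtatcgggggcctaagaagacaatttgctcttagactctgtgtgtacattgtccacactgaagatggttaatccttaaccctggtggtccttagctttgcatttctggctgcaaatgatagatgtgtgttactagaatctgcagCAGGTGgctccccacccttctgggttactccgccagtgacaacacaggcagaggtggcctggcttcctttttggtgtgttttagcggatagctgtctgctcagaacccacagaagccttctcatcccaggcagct
Klk1, chr7:44225110-44225409, plus strand: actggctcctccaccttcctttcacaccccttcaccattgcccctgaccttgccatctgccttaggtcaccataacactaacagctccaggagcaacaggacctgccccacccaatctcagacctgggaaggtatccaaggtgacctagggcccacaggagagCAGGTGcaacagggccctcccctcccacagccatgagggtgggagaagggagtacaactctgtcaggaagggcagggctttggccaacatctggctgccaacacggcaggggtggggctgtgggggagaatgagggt
Bst2, chr8:71537423-71537722, minus strand: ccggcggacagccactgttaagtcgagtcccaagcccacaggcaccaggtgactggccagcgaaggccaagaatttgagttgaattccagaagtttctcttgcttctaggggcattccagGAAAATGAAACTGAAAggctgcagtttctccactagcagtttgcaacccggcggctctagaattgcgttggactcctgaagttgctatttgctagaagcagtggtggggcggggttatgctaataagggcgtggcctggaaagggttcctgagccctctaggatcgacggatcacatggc

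Relative to the start, the first base of the marked E-box core lay at -20 in Siglech, at -85 in Ccr9 and at -87 in Klk1. Searched on both strands, CAGGTG was present in 4 of the 6 windows (Bst2, Ccr9, Klk1 and Siglech) and in 20.2% of all 32851 promoter windows of this length. It is contained in the general E-box CANNTG, which was present in 6 of 6 windows and in 72.3% of all. The Bst2 matches began at -130 and -124, and this motif, searched on both strands, was present in 3.4% of all windows and in 1 of the 6. TGTGGT, read by RUNX factors, was present in Runx2 and Siglech and in 16.8% of all windows. GAGGAA, read by ETS factors such as Spi-B, was present in Siglech and in 28.3% of all windows. A match describes letters in a window and does not show that a factor binds there.

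The values are the authors' log2 values, and every level and difference below is on their scale. The sources used here do not name the transform. In form the scale is a shrunken one, which would understate the differences of low genes. Depth per library is unknown from such values. In bulk samples, fewer cells of a type and less RNA per cell cannot be told apart. The gene of the sorting marker CD11c, Itgax, lay between 12.01 and 13.48 in the 12 libraries. Markers of other cell types were present as well: the mean of 15 B cell genes ran from 11.01 to 12.87, that of 13 Kupffer cell genes from 9.31 to 12.84 and that of 10 genes of type 1 conventional dendritic cells (cDC1) from 9.63 to 11.33. Library 3 of each curcumin group stood apart from libraries 1 and 2 of its group in several of the 10 genes. Its values are therefore given for each gene, and several differences and counts are given with and without it. The spread between libraries, the correlations and the genes that followed Siglech are given only with it. Replicate numbers name libraries and were not treated as pairs.

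Among the surface receptors, Siglech varied most. It encodes Siglec-H, a sialic acid-binding lectin that signals through DAP12 and is a widely used marker of mouse plasmacytoid dendritic cells (chromosome 7, 55768178 to 55778925 of GRCm38, plus strand). In libraries 1, 2 and 3 it stood at 5.79, 5.87 and 7.70 in DiI-positive and at 6.04, 7.70 and 8.69 in DiI-negative cells after empty liposomes. After curcumin liposomes the values were 7.64, 7.40 and 11.28 in DiI-positive and 9.08, 7.83 and 11.48 in DiI-negative cells. Library 3 was the highest of its group in all 4 groups, and the ranges of the groups overlapped in each comparison. By group mean the order was empty DiI-positive (6.46 ± 1.08, SD, n = 3), empty DiI-negative (7.48 ± 1.34), curcumin DiI-positive (8.78 ± 2.17) and curcumin DiI-negative (9.46 ± 1.86), and no neighbours in this order differed beyond their spread.

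Ccr9 encodes the receptor for the chemokine CCL25, which guides cells to the gut and thymus (chromosome 9, 123678439 to 123784330, plus strand). After empty liposomes it stood at 6.83, 8.004 and 6.68 in DiI-positive and at 6.68, 8.15 and 8.22 in DiI-negative cells. After curcumin liposomes it stood at 6.00, 6.31 and 10.06 in DiI-positive and at 8.54, 7.19 and 10.27 in DiI-negative cells. Library 3 of both curcumin groups held the highest values of the 12, while library 1 of the curcumin DiI-positive group held the lowest. The exons of Ccr9 overlap those of AC165425.1 and Slc6a20a on the opposite strand and Gm17200 on the same strand. The use of strand in counting is not given in the sources used here, so reads of these genes cannot be told apart from those of Ccr9.

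Bst2 encodes tetherin, the interferon-inducible antigen seen by the antibody PDCA-1, which is found on plasmacytoid dendritic cells and, after interferon, on many other cells (chromosome 8, 71534255 to 71537456, minus strand). Its libraries lay close together: 10.16, 10.53 and 10.75 in empty DiI-positive, 10.25, 10.48 and 10.71 in empty DiI-negative, 10.67, 10.54 and 11.12 in curcumin DiI-positive, and 10.67, 11.08 and 11.05 in curcumin DiI-negative cells. The group means ran from 10.48 ± 0.30 in empty DiI-positive to 10.93 ± 0.23 in curcumin DiI-negative cells, and all groups overlapped with each other. Ly6d, a small surface protein of the Ly-6 family that marks early B-lineage cells and precursors of plasmacytoid dendritic cells, behaved differently (chromosome 15, 74762056 to 74763620, minus strand). It stood at 12.39, 12.58 and 12.25 in DiI-positive and at 10.96, 11.24 and 11.37 in DiI-negative cells after empty liposomes. After curcumin liposomes it stood at 12.78, 12.48 and 11.75 in DiI-positive and at 11.37, 11.44 and 11.22 in DiI-negative cells. Every DiI-positive library lay above every DiI-negative library, and the lowest DiI-positive value was that of library 3 of the curcumin group.

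Among the transcription factors, Spib followed the same order as Ly6d. It encodes Spi-B, an ETS factor used by both B cells and plasmacytoid dendritic cells (chromosome 7, 44525993 to 44532071, minus strand). After empty liposomes it stood at 11.41, 11.77 and 11.49 in DiI-positive and at 10.27, 10.14 and 10.54 in DiI-negative cells. After curcumin liposomes it stood at 11.39, 11.45 and 10.57 in DiI-positive and at 10.42, 10.04 and 10.43 in DiI-negative cells. The DiI-positive libraries were again all above the DiI-negative ones, though curcumin DiI-positive library 3 (10.57) barely exceeded the highest DiI-negative library (10.54).

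Tcf4 was the steadiest of the 10. Its values were 11.25, 11.07 and 11.17 in empty DiI-positive and 10.96, 10.76 and 11.17 in empty DiI-negative cells. They were 11.31, 11.32 and 11.51 in curcumin DiI-positive and 11.04, 10.88 and 11.74 in curcumin DiI-negative cells. The group means ran from 10.96 ± 0.21 to 11.38 ± 0.11, and the highest single value was that of library 3 of the curcumin DiI-negative group.

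Runx2, known as the master factor of bone formation, also controls the exit of mouse plasmacytoid dendritic cells from the bone marrow (chromosome 17, 44495987 to 44814797, minus strand; its exons overlap those of the opposite-strand gene Runx2os1). It stood at 7.19, 7.56 and 8.07 in DiI-positive and at 8.65, 8.16 and 8.26 in DiI-negative cells after empty liposomes. After curcumin liposomes the values were 6.77, 7.86 and 8.89 in DiI-positive and 8.49, 8.67 and 9.09 in DiI-negative cells. The gates did not overlap after empty liposomes, and after curcumin liposomes library 3 of the DiI-positive group reached into the DiI-negative range.

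The other 3 genes encode a protease, a subunit of the respiratory chain and a small membrane protein. Klk1 encodes tissue kallikrein, a serine protease that releases kinins (chromosome 7, 44225360 to 44229618, plus strand). Its values were 5.26, 6.23 and 5.44 in empty DiI-positive, 5.25, 6.00 and 6.73 in empty DiI-negative, 6.04, 5.68 and 8.49 in curcumin DiI-positive, and 7.19, 5.27 and 8.48 in curcumin DiI-negative cells. The 2 highest values were again those of library 3 of the curcumin groups. Klk1 has 14 near copies named Klk1b in the files, of which 4 were not at 0 in all libraries and 1, Klk1b27, passed the filter. Klk1b27 was also highest in those 2 libraries (5.61 and 5.68), so reads may be shared between copies and the Klk1 level is uncertain to that extent.

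Cox6a2 encodes the muscle form of subunit 6A of cytochrome c oxidase (chromosome 7, 128205435 to 128206387, minus strand; its exons overlap those of the opposite-strand gene Itgad). It stood at 5.54, 5.54 and 5.40 in empty DiI-positive, 5.69, 5.78 and 5.98 in empty DiI-negative, 5.66, 5.55 and 6.68 in curcumin DiI-positive, and 5.68, 5.86 and 6.88 in curcumin DiI-negative cells. Only library 3 of the curcumin groups was above 6 on this scale. Smim5 encodes a small integral membrane protein (chromosome 11, 115899966 to 115906269, plus strand). It stood at 7.35, 7.43 and 8.38 in empty DiI-positive, 9.02, 9.10 and 9.25 in empty DiI-negative, 8.56, 8.50 and 9.72 in curcumin DiI-positive, and 9.14, 8.77 and 9.92 in curcumin DiI-negative cells. The empty DiI-positive libraries were below all the others.

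**Figure D1:**
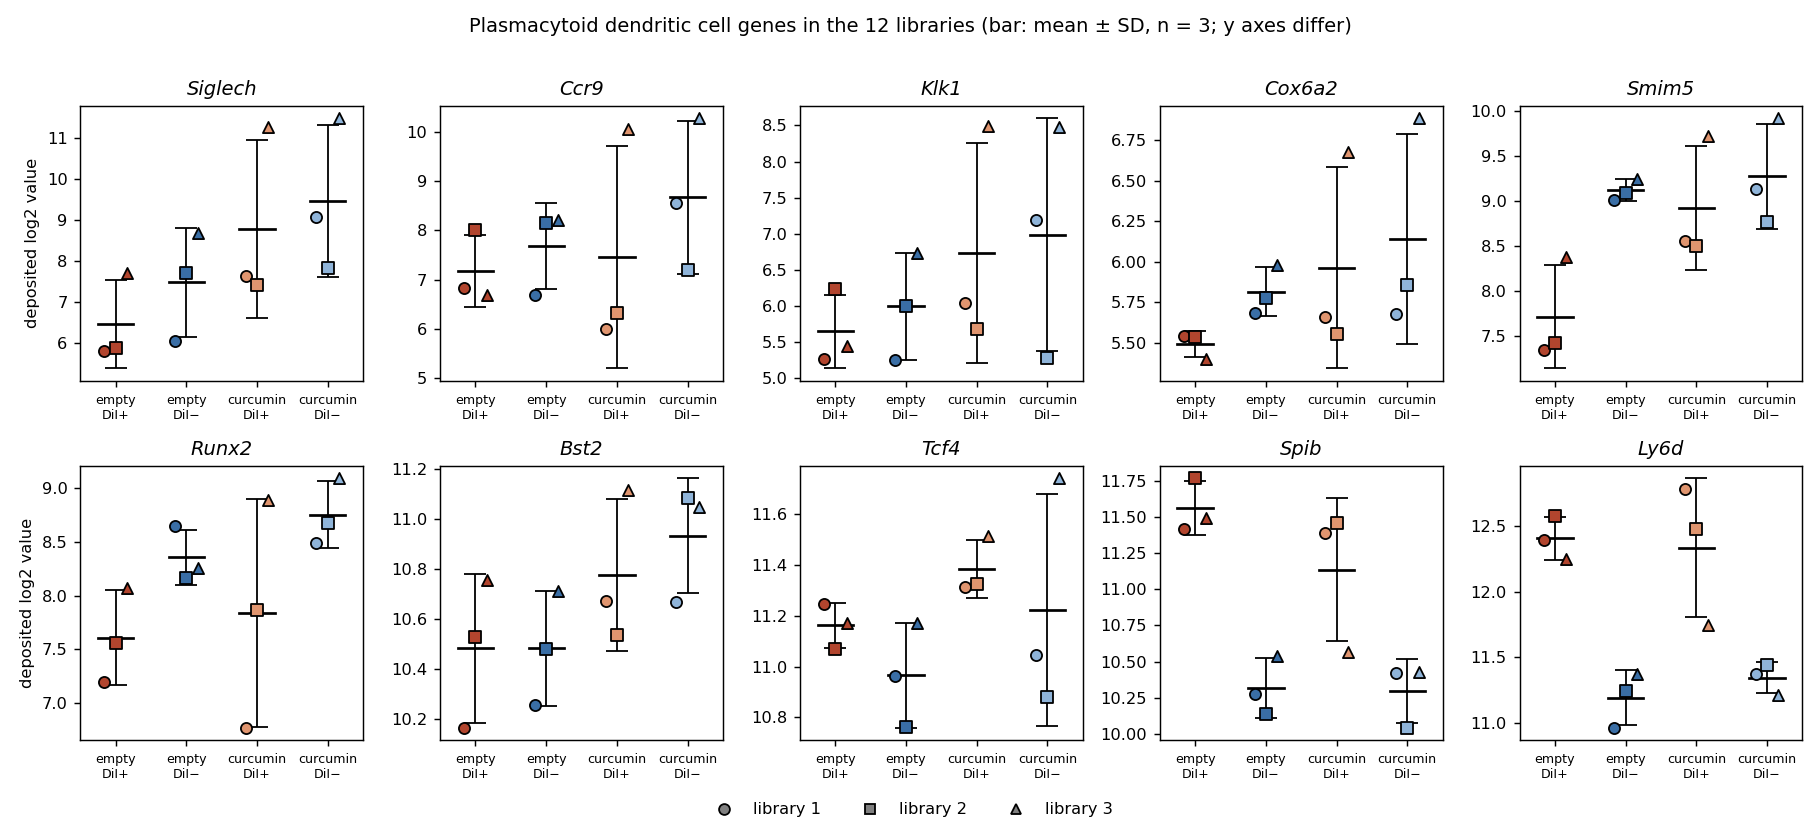
Deposited log2 value of each of the 10 genes (y axis, a different range for each gene) in the 4 groups (x axis). Points are libraries, with the library number given by the marker, and bars are the mean ± SD (n = 3). Spib and Ly6d are higher in DiI-positive cells, and library 3 (triangles) stands above libraries 1 and 2 of the curcumin groups for Siglech, Ccr9, Klk1 and Cox6a2.

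The spread between libraries of a group was wide for these genes. The residual SD over the 4 groups was 1.67 for Siglech, 1.48 for Ccr9 and 1.20 for Klk1, which ranked 6, 8 and 13 from the highest among the 14227 genes tested. It was 0.61 for Runx2, 0.54 for Smim5 and 0.46 for Cox6a2, and these 6 genes were among the highest 5% of all genes. Spib and Ly6d (both 0.30), Bst2 (0.27) and Tcf4 (0.26) varied less. All 10 were above the median of all genes, 0.20, and the median of the 10 was 0.50.

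Library 3 often lay at the top of its group. It was the highest library of its group for 9 of the 10 genes in the empty DiI-negative group, for 8 in the curcumin DiI-positive group and for 8 in the curcumin DiI-negative group. The same libraries were highest for 35.0%, 35.8% and 35.3% of all genes tested. In the empty DiI-positive group library 3 was highest for 4 of the 10 and for 31.9% of all genes. Library 1 was lowest for 6 of the 10 in the empty DiI-positive and 7 in the empty DiI-negative group, beside 33.8% and 34.4% of all genes. Library 2 was lowest for 5 in the curcumin DiI-positive and 6 in the curcumin DiI-negative group, beside 31.6% and 35.4%. In curcumin DiI-positive cells, library 3 exceeded the mean of libraries 1 and 2 by 3.91 for Ccr9, 3.76 for Siglech, 2.63 for Klk1 and 1.58 for Runx2. Spib and Ly6d went the other way there, at -0.86 and -0.88. In curcumin DiI-negative cells library 3 exceeded the other two by 3.03 for Siglech, more than for any other of the 14227 genes, by 2.402 for Ccr9 and by 2.25 for Klk1, which ranked 3 and 4. The median of the 10 genes was 1.13 in the first and 0.87 in the second of these libraries, against 0.03 and 0.01 over all genes.

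Some other lists differed in the same libraries and some hardly did. The list of 19 further genes enriched in plasmacytoid dendritic cells had a median of 0.85 in library 3 of curcumin DiI-positive cells and of 0.67 in that of curcumin DiI-negative cells, again against libraries 1 and 2. The cDC1 list had medians of 1.22 and 1.00. Flt3, the cytokine receptor needed by all dendritic cells, reached 12.22 and 13.47 in these libraries, and Irf8, a factor needed by cDC1 and highly expressed in plasmacytoid dendritic cells, reached 13.97 and 14.53. The B cell list had medians of -1.04 and -0.60, the neutrophil list of -0.65 and -1.37, and the monocyte list of -0.32 and -0.86. The Kupffer cell list had medians of 0.71 and 0.32. The list of transcription factors of the lineage and their antagonists had medians of 0.14 and 0.13, and that of nucleic acid sensing of 0.16 and -0.05. Flt3 is in the first of these lists. The mean of that list stood at 11.09, 11.26 and 11.56 in libraries 1, 2 and 3 of curcumin DiI-positive cells. In curcumin DiI-negative cells it stood at 11.61, 11.60 and 11.86. The part of these other cell types in the values of the 10 genes was not tested.

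The gate comparison, DiI-positive minus DiI-negative, addresses how liposome uptake sorted with gene expression. Of the 10 genes, Spib and Ly6d were higher in DiI-positive cells at the threshold, and no gene passed it as lower, although 7 of the 10 averaged differences were negative. After empty liposomes, Spib differed by 1.24 ± 0.22 (SE; limma adjusted p = 0.015) and Ly6d by 1.22 ± 0.22 (adjusted p = 0.0153). These 2 of 10 stand beside 1.32% of all genes called higher, 1.62% called lower and 2.95% called in either direction. The libraries of both genes did not overlap, as was so for 12.3% of all genes in that direction. After curcumin liposomes, Ly6d was higher by 0.99 ± 0.22 (adjusted p = 0.0339), 1 of 10 beside 1.41% of all genes called higher, 1.67% lower and 3.07% either way. Spib differed there by 0.84 ± 0.22 and missed the threshold (adjusted p = 0.066), although the libraries of Spib, like those of Ly6d, did not overlap, as was the case for 9.88% of all genes in that direction and 10.7% in the other. Averaged over both liposomes, Spib was higher by 1.04 ± 0.16 (adjusted p = 0.00195) and Ly6d by 1.10 ± 0.15 (adjusted p = 0.00129), 2 of 10 beside 5.54% of all genes called higher, 6.56% lower and 12.1% either way. Under both liposomes alike, the libraries were higher with no overlap for these 2 and for 3.99% of all genes, and lower for none of the 10 and 5.29% of all genes. Both averaged calls held without any single library, with adjusted p under the threshold of 0.05 in 12 of 12 fits. The calls after empty liposomes were lost without DiI-positive library 2 or without DiI-negative library 1 or 2, with adjusted p from 0.0577 to 0.072. The call of Ly6d after curcumin liposomes was lost without any of the DiI-negative curcumin libraries, DiI-positive curcumin library 1 or 2, or empty DiI-negative library 2 (adjusted p from 0.0569 to 0.127). Without library 3 of the curcumin DiI-positive group, Spib passed after curcumin liposomes as well, at 1.12 (adjusted p = 0.00372).

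Smim5 and Runx2 had the largest negative gate differences relative to their error. Smim5 differed by -1.40 ± 0.38 after empty liposomes (adjusted p = 0.0754), by -0.35 ± 0.38 after curcumin liposomes (adjusted p = 0.687) and by -0.87 ± 0.27 on average (adjusted p = 0.0564). Runx2 differed by -0.75 ± 0.43, by -0.91 ± 0.43 and on average by -0.83 ± 0.30 (adjusted p = 0.0998). Neither passed the threshold. After empty liposomes 3 of the 10 genes, Smim5, Runx2 and Cox6a2, were lower in DiI-positive cells with no overlap, beside 14.5% of all genes. Without library 3 of the curcumin DiI-positive group, the averaged difference was -1.07 for Smim5 (adjusted p = 0.0113) and -1.09 for Runx2 (adjusted p = 0.00959), and both passed. Smim5 also passed on average without library 3 of the empty DiI-positive group (-1.04, adjusted p = 0.0292) or library 2 of the curcumin DiI-negative group (-1.001, adjusted p = 0.0453). After empty liposomes alone, Smim5 passed without library 3 of the curcumin DiI-positive group (adjusted p = 0.0316), and Runx2 passed after curcumin liposomes without it (-1.44, adjusted p = 0.0308).

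Siglech and Ccr9, the most variable of the surface markers, did not pass the threshold between gates. Siglech had an averaged difference of -0.85 with a 95% interval from -2.62 to 0.91 (adjusted p = 0.549), and Ccr9 one of -0.86 from -2.43 to 0.71 (adjusted p = 0.49). In this fit, which did not pair libraries by number, these intervals are too wide to tell a large difference from none. Siglech was lower in the DiI-positive library of every same-numbered pair, and Ccr9 in all but library 1 after empty liposomes. With library number added to the fit, the SE was 0.23 for Siglech (limma adjusted p = 0.0544) and 0.32 for Ccr9 (adjusted p = 0.136). Whether the numbers are true pairs is unknown. Without library 3 of both curcumin groups, the averaged differences were -0.98 for Siglech (limma adjusted p = 0.29) and -1.11 for Ccr9 (adjusted p = 0.0998). Bst2 (-0.08, from -0.39 to 0.23) and Tcf4 (0.18, from -0.12 to 0.48) had narrow intervals around 0. Klk1 (-0.30, from -1.57 to 0.97) and Cox6a2 (-0.25, from -0.75 to 0.25) completed the list. The median of the 10 averaged differences was -0.27, against 0.005 over all genes tested.

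**Figure D2:**
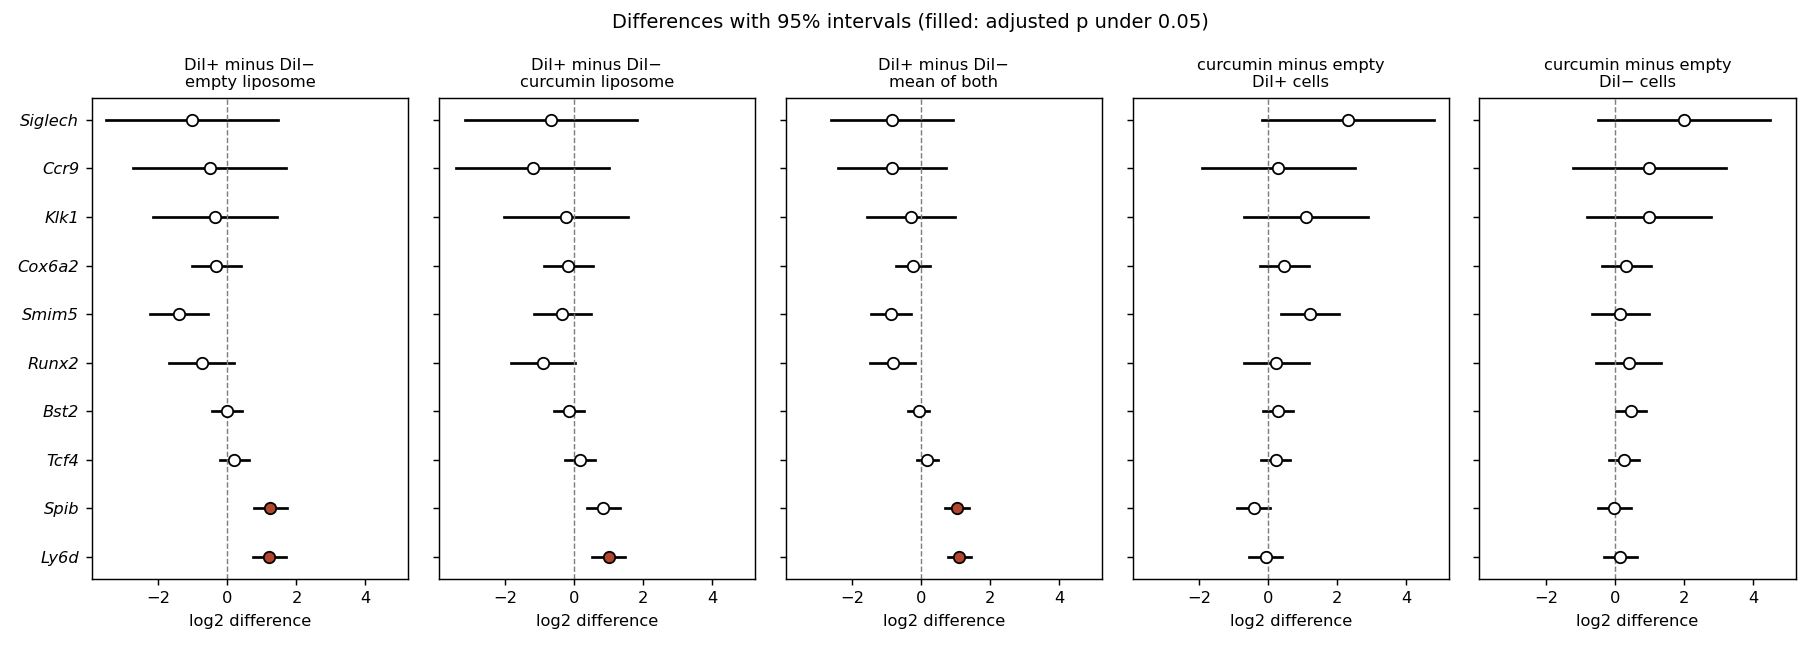
Log2 difference of each of the 10 genes (x axis) with its 95% interval, for the gate comparisons (DiI-positive minus DiI-negative) and the curcumin comparisons (curcumin minus empty). Filled points have an adjusted p under 0.05; these are Spib and Ly6d after empty liposomes and on average, and Ly6d after curcumin liposomes.

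The B cell list differed between gates in the same direction as Spib and Ly6d. All 15 of its genes were higher in DiI-positive cells averaged over both liposomes, beside 5.54% of all genes, with a median difference of 1.13, and Cd79a, a signalling chain of the B cell receptor, differed by 1.25 ± 0.23 (adjusted p = 0.00496). The mean level of the 15 genes ran from 12.56 to 12.87 in empty DiI-positive and from 11.41 to 11.68 in empty DiI-negative cells. It ran from 11.73 to 12.81 in curcumin DiI-positive and from 11.01 to 11.53 in curcumin DiI-negative cells, and none of the 15 genes was at 0. Over the 12 libraries, the B cell mean correlated with Ly6d at Pearson r = 0.96 and with Spib at r = 0.94. After the group means had been taken off, r was 0.93 and 0.72. Siglech (r = -0.58), Smim5 (-0.81) and Runx2 (-0.86) had negative correlations with it, and Tcf4 was near 0 (0.03). The 13 Kupffer cell genes also moved with the gate, with 12 higher and none lower, beside 5.54% and 6.56% of all genes, and a median difference of 2.48. Their means ran from 10.68 to 12.74 and from 11.99 to 12.84 in the empty and curcumin DiI-positive groups, and from 9.31 to 9.87 and from 9.53 to 9.86 in the DiI-negative groups. Over the 12 libraries the Kupffer cell mean correlated with Spib at 0.73 and with Ly6d at 0.78, and after the group means had been taken off at -0.13 and -0.35. The mean of 10 genes of type 2 conventional dendritic cells correlated with Spib at -0.96 and with Ly6d at -0.97. After the group means had been taken off, these were -0.85 and -0.88. For 7 plasma cell genes the values were 0.85 and 0.91, and 0.50 and 0.54. The part of B cells, Kupffer cells or other cell types in the gate difference of Spib and Ly6d was not tested.

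**Figure D3:**
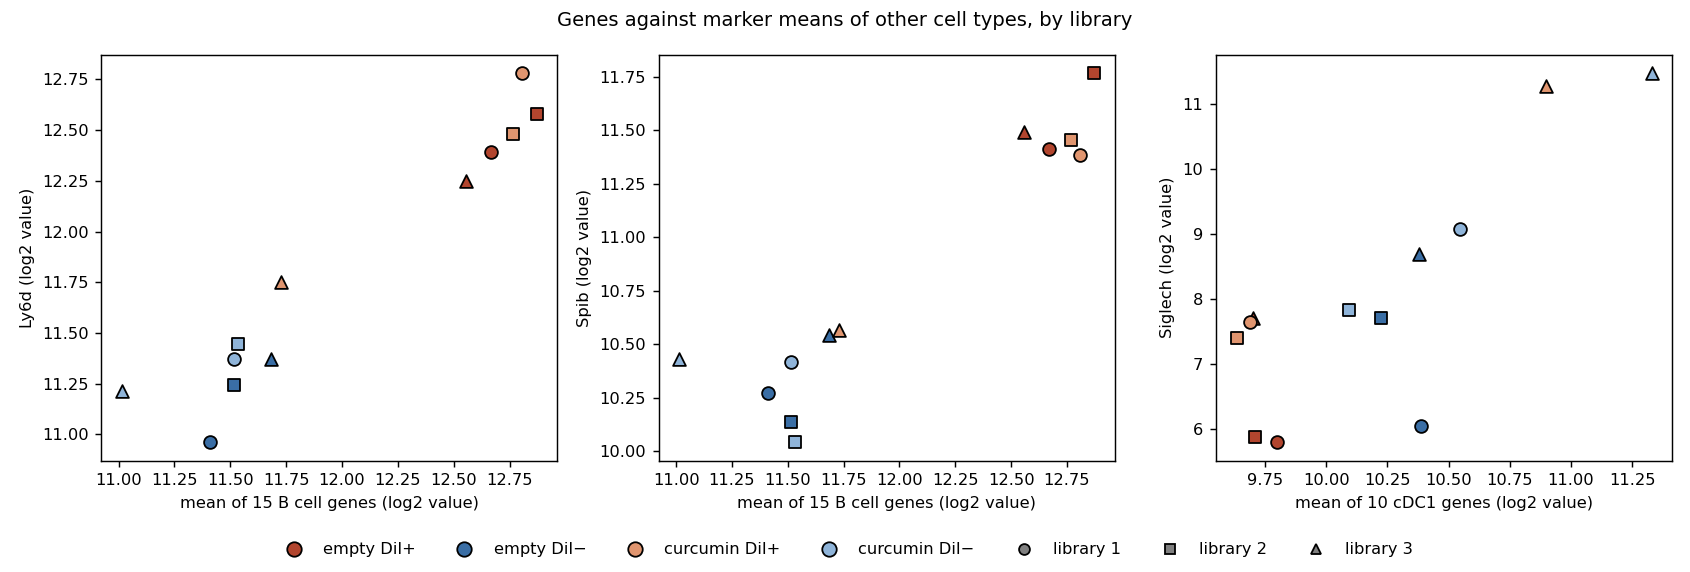
Each point is 1 of the 12 libraries, coloured by group and shaped by library number. Ly6d and Spib (y axes, log2 value) are plotted against the mean of 15 B cell genes, and Siglech against the mean of 10 cDC1 genes (x axes, mean log2 value). Ly6d follows the B cell mean (r = 0.96), and the 2 highest Siglech values belong to the 2 libraries with the highest cDC1 means.

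The curcumin comparison, curcumin minus empty liposome within a gate, addresses the cargo. None of the 10 genes passed the threshold in either gate, and neither did any of the 14227 genes tested (0.0% called by limma in both). At an unadjusted p under 0.05 there were 1165 genes (8.19%) in DiI-positive and 469 genes (3.3%) in DiI-negative cells, with 1 of the 10 genes in each. In DiI-positive cells that gene was Smim5, which differed by 1.21 ± 0.38 with a 95% interval from 0.38 to 2.04 (adjusted p = 0.464). In DiI-negative cells it was Bst2, at 0.45 from 0.02 to 0.89. Its adjusted p was 1.0.

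Siglech had the largest point estimates of the 10. It was 2.32 ± 1.14 in DiI-positive cells (interval from -0.18 to 4.82, adjusted p = 0.635) and 1.99 ± 1.14 in DiI-negative cells (from -0.51 to 4.49, adjusted p = 1.0). Without library 3 of both curcumin groups, an alternative chosen after the values were seen, the estimates were 1.07 and 0.98. The estimates of other genes also moved. In DiI-positive cells Klk1 went from 1.09 to 0.22, Ccr9 from 0.29 to -1.02, Runx2 from 0.23 to -0.29 and Cox6a2 from 0.47 to 0.11. In DiI-negative cells Ccr9 went from 0.98 to 0.18, Klk1 from 0.99 to 0.24 and Smim5 from 0.15 to -0.17. Smim5 in DiI-positive cells went from 1.21 to 0.81, and none of these values passed the threshold with or without the libraries.

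In DiI-positive cells 3 of the 10 genes, Smim5, Cox6a2 and Tcf4, were higher after curcumin with no overlap between the groups, beside 4.93% of all genes in that direction. In DiI-negative cells there were none, beside 5.73%. The margins in DiI-positive cells were narrow. The lowest curcumin and highest empty values were 5.5535 and 5.5414 for Cox6a2, 11.31 and 11.25 for Tcf4, and 8.50 and 8.38 for Smim5. Spib differed by -0.42 (interval from -0.91 to 0.06) and Ly6d by -0.07 (from -0.55 to 0.41) in DiI-positive cells. In DiI-negative cells they differed by -0.02 (from -0.51 to 0.46) and 0.15 (from -0.33 to 0.63). The median of the 10 differences was 0.29 in DiI-positive and 0.36 in DiI-negative cells, against 0.0003 and 0.0001 over all genes. Without library 3 of both curcumin groups the medians of the 10 were 0.14 and 0.20. The gate comparisons and the curcumin comparisons share libraries.

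Whether the gate difference itself changed with curcumin was tested directly. No gene passed (0.0% of genes by limma; 527 genes, or 3.7%, at an unadjusted p under 0.05, none of them among the 10). The largest of the 10 in relation to its error was Smim5, with a difference of 1.06 ± 0.54 (unadjusted p = 0.0744, adjusted p = 0.999). For Spib it was -0.40 ± 0.31 and for Ly6d -0.22 ± 0.31, so the call of Spib after empty liposomes alone does not show that its gate difference depended on the cargo.

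Across the 12 libraries most of the 10 genes varied together, while Spib and Ly6d varied with each other. Siglech correlated at Pearson r = 0.90 with Klk1, 0.87 with Cox6a2, 0.84 with Smim5, 0.81 with Bst2 and 0.80 with Ccr9. Every pair among the 8 genes other than Spib and Ly6d had a positive r, from 0.11 for Runx2 with Tcf4 to 0.91 for Ccr9 with Klk1. Spib and Ly6d correlated with each other at 0.93. Both had a negative r with each of the 8 except Tcf4, whose r was 0.26 with Spib and 0.22 with Ly6d. The most negative was that of Ly6d with Runx2 at -0.82. After the group means had been taken off, Siglech correlated at 0.93 with Smim5, 0.88 with Klk1 and 0.85 with Ccr9, and Ly6d at -0.89 with Runx2. These are descriptions of 12 libraries whose points share sorting, depth and cell content, and library 3 of the curcumin groups lies at the end of most of them.

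**Figure D4:**
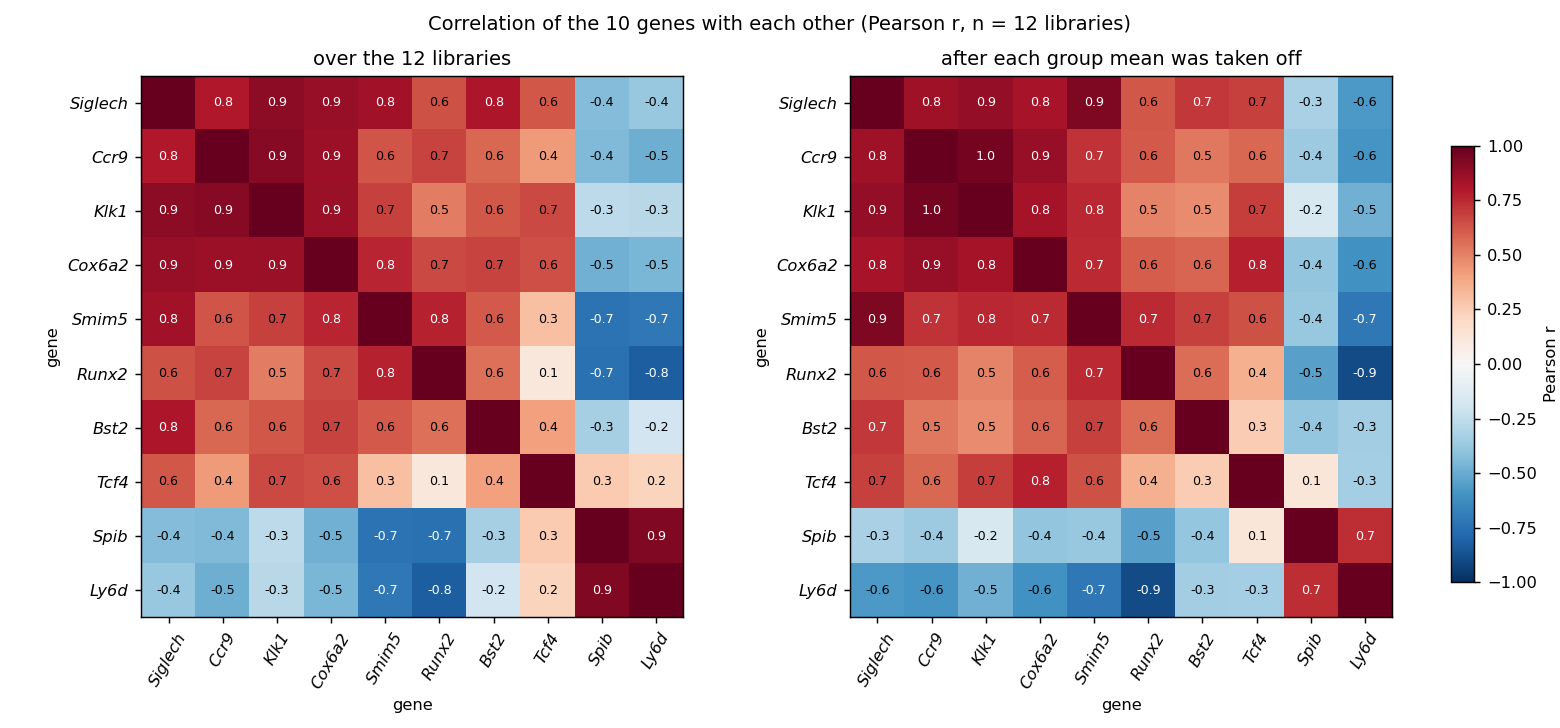
Pearson r between the 10 genes over the 12 libraries, for the values as deposited and after each group's mean was taken off both genes. Red is positive and blue negative; Siglech, Ccr9, Klk1, Cox6a2 and Smim5 form a positive block (r from 0.63 to 0.91 over the libraries), and Spib and Ly6d are positive with each other (0.93).

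By the likeness rule, the 5 genes outside the 10 whose values followed Siglech most closely over the 12 libraries were Nucb2 (r = 0.924), Adam11 (0.902), Dkk3 (0.901), Pnck (0.900) and Klk1b27 (0.900). After the group means had been taken off they were Nucb2 (0.964), Ube2g1 (0.951), Dkk3 (0.949), Apof (0.942) and Klk1b27 (0.936). Several of these genes were low in all 12 libraries, so their r can rest on few libraries. Apof ran from 4.35 to 4.70, Pnck from 4.17 to 5.05, Klk1b27 from 4.55 to 5.68 and Dkk3 from 4.91 to 6.00. Nucb2, which encodes the calcium-binding protein nucleobindin 2, led by both measures. It stood at 10.39 and 10.36 in library 3 of the curcumin DiI-positive and DiI-negative groups and between 9.32 and 10.05 in the other libraries. With the mean of the cDC1 list, Siglech correlated at 0.81 over the libraries and at 0.83 after the group means had been taken off. With the mean of the 19 further genes enriched in plasmacytoid dendritic cells the values were 0.82 and 0.89.

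The genes that work with these 10 were described from lists chosen with earlier results known, with the averaged gate comparison as the measure. In it 5.54% of all genes were called higher and 6.56% lower, and each count of a list below stands beside these shares. Of 17 transcription factors and regulators of the lineage and their antagonists, 1 was higher in DiI-positive cells (Tcf3, an E protein). In the same list 6 were lower, and the median was -0.26. The 6 were Flt3 (-1.65 ± 0.32, adjusted p = 0.00732), Nfil3 (-1.02 ± 0.16), the corepressor Cbfa2t3, also called Mtg16 (-0.83 ± 0.13), Spi1, which encodes PU.1 (-0.40 ± 0.08), Runx1 and Zbtb46. Zbtb46 is best known from conventional dendritic cells. Irf8 (-0.34, adjusted p = 0.294), Bcl11a (0.38, adjusted p = 0.11), which sustains Tcf4 expression, Zeb2 (-0.07) and Id2 (-0.49, adjusted p = 0.0513), an inhibitor of E proteins, did not pass.

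Of 16 tested genes of nucleic acid sensing and interferon induction, 3 were lower in DiI-positive cells (6.56% of all genes) and none was higher (5.54%), with a median of -0.10. They were the adaptor Myd88 (-0.57 ± 0.11, adjusted p = 0.00529), Irf5 (-0.36 ± 0.07) and the nuclease Pld4 (-0.25 ± 0.06). Tlr7, the receptor for single-stranded RNA (0.18, adjusted p = 0.433), Irf7, the main inducer of interferon alpha (0.07, adjusted p = 0.772), and Tlr9, the receptor for unmethylated DNA (-0.21, adjusted p = 0.193), did not pass. Tlr9 was low in all 12 libraries, between 4.60 and 5.14. Ifnb1, Ifna1, Ifna2 and Ifna4 had mean values under the filter and were not tested.

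Of the 19 further genes enriched in plasmacytoid dendritic cells, 1 was higher (Lair1) and 5 were lower in DiI-positive cells, beside 5.54% and 6.56% of all genes, with a median of -0.30. The 5 were Cd7 (-1.82 ± 0.20, adjusted p = 0.000325), Ly6c2 (-1.44 ± 0.19), Sla2 (-0.66 ± 0.13), the phosphatase receptor Ptprs (-0.56 ± 0.15) and Epha2. Cd7 is also known from T and NK cells, and Ly6c2 is also in the monocyte list. In the same comparison 10 of 13 T and NK cell genes and 6 of 9 monocyte genes were lower, beside the same 6.56% of all genes. T and NK cell means ran from 8.21 to 8.67 and from 8.28 to 8.59 in the empty and curcumin DiI-positive groups, and from 9.47 to 9.87 and from 9.28 to 9.48 in the DiI-negative groups. Of 22 interferon-stimulated genes, 4 were lower (6.56% of all genes) and none was higher (5.54%), with a median of -0.17. They were Usp18 (-0.55 ± 0.09), Mx1 (-0.54 ± 0.11), Ifit1 (-0.61 ± 0.17) and Oas3 (-0.51 ± 0.15). Bst2, itself interferon-inducible, did not pass (-0.08 ± 0.14). No gene of any list passed in either curcumin comparison.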

How the data were processed

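RNA of sorted liver cells went, per the labels' protocols, through SMARTer cDNA amplification for low inputs and Nextera XT library preparation. The authors deposited 1 log2 value for each gene and library. STAR 2.4.0d, DESeq2 1.8.1 and GRCm38 were used, per the submitters' processing notes. The sources used here do not name the counter, annotation or transform. In form the values are a regularized log, and depth is unknown. Since 24 sample records share 12 library codes, 2 records with 1 code entered as 1 library, and groups were read from the codes with the help of the design text.

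The filter on low values, a log2 mean of 4 or more across libraries, kept 14227 of the 24874 genes that were not at 0 everywhere. One limma 3.58.1 fit in R 4.3.3 had a mean for each of the 4 groups (8 residual and 3.51 prior degrees of freedom, eBayes with trend). Adjusted p-values are Benjamini-Hochberg values over all genes tested, with a threshold of 0.05, and errors are SEs from this fit. The averaged gate comparison weights both liposomes equally. The fit was tested on simulated data. Symbols came from the gene name table, coordinates from GENCODE M21 on GRCm38 and promoters from RefSeq.

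The 10 genes were all named. Of each list, up to 4 genes with the smallest p in the averaged gate comparison were named, with Irf8, Tlr7, Tlr9, Irf7, Bcl11a, Zeb2, Id2, Cd79a, Itgax and the 5 genes most like Siglech; other genes called in a list were named after their values were seen. One gene that the rule names is not reported here. The members and lists were chosen with earlier results of these data known. Alternatives were the filter, the scaling, the prior, library weights, the libraries in the fit, a replicate block and leaving out each library.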

Additional observations from a re-analysis of the deposited data

How the results depend on the processing

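Spib and Ly6d kept their direction in the gate comparisons under every alternative. Of the 10 genes, 2 passed after empty liposomes, with a range from 0 to 3 when 1 library was left out. After curcumin liposomes 1 passed, with a range from 0 to 3 when 1 library was left out, 0 with no filter (which tested 24874 genes), 2 with the stricter filter (mean of at least 6), 0 with only the libraries compared, and 2 without library 3 of both curcumin groups. On average 2 passed, with a range from 2 to 4 when 1 library was left out, and 4 without library 3 of both curcumin groups. In the curcumin comparisons and the difference of the gate effects 0 passed under all alternatives run. Over all genes, the calls after empty liposomes (419) ran from 85 to 659 with 1 library left out and from 263 to 789 otherwise. Those after curcumin liposomes (437) ran from 114 to 1088, and from 40 (only the libraries compared) to 706 otherwise; averaged calls (1722) ran from 1149 to 2244. The cause of these shifts was not tested. Smim5 also passed after empty liposomes with library weights (adjusted p = 0.0402) and with only the libraries compared (0.0365), and on average with the stricter filter (0.0422). Deviations of same-numbered libraries correlated from 0.0037 to 0.0787 across gates after empty liposomes and from 0.0348 to 0.328 after curcumin liposomes, and those of different-numbered libraries from -0.0833 to 0.0026 and from -0.245 to 0.197. Every library correlated best with its own number after empty liposomes but not after curcumin liposomes; since not every same-numbered pair was over 0.1, the numbers were not taken as pairs. With the replicate block 3 of the 10 passed after empty liposomes, 1 after curcumin liposomes and 3 on average, Smim5 being the addition (adjusted p = 0.0165 and 0.00757), and 0 in the other comparisons; 390, 448 and 1555 genes passed in all. With this block the averaged gate difference of Siglech stayed at -0.85, with an SE of 0.23 instead of 0.81 (limma adjusted p = 0.0544). That of Ccr9 stayed at -0.86, with an SE of 0.32 instead of 0.72 (adjusted p = 0.136). For single genes, each gene, comparison and alternative was counted as 1 refit. Of these refits 55 changed sign with no fit past the threshold, beside 1148 counted as unchanged, 17 as stronger and 14 as weaker. With unknown depth, precision is limited to the spread of 3 libraries.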

Other observations

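Siglech was also high in library 3 of both empty-liposome groups. In empty DiI-negative cells, library 3 exceeded the mean of libraries 1 and 2 by 1.82 on the log2 scale, the largest such difference among the 14227 genes tested, and in empty DiI-positive cells by 1.87, which ranked 10. Ccr9 differed in these libraries by 0.80 in DiI-negative and -0.73 in DiI-positive cells, and Klk1 by 1.11 and -0.30. The B cell list had medians of 0.21 and -0.23 and the cDC1 list of 0.04 and 0.01, so these lists moved less than in library 3 of the curcumin groups (-0.60 and -1.04 for B cells, 1.00 and 1.22 for cDC1 in DiI-negative and DiI-positive cells). Kupffer cell genes had a median of 1.46 in library 3 of empty DiI-positive cells. The sources used here do not say what a shared library number stands for.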
